A study of Homo sapiens with 26 samples.

Results

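The mitochondrial ribosomal protein genes are the nuclear genes named MRPL or MRPS, for the proteins of the large and the small subunit of the ribosome inside mitochondria. They were taken from the array annotation as every probe set with a single symbol that begins with MRPL or MRPS. This gave 76 genes with 133 probe sets, of 19578 single-symbol genes on the array, and each gene was represented by the brightest of its probe sets, judged by the mean of the 26 arrays. All 76 genes were among the 14929 genes that passed a filter on low values and were tested.

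Mitochondria keep a small genome of their own, and the few proteins it encodes are core subunits of the respiratory chain and the ATP synthase. They are made on mitochondrial ribosomes, whose RNAs come from the mitochondrial genome and whose proteins are all encoded in the nucleus, translated in the cytosol and imported. Many of these proteins descend from bacterial ribosomal proteins, and others have no bacterial counterpart. The respiratory chain cannot be completed without these ribosomes, and inherited defects in several of their proteins cause respiratory chain disease.

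The cells were A549, 1 human lung adenocarcinoma line, which had been kept without serum for 24 h in all groups. They were then left untreated or given 5 ng/mL porcine TGF-beta 1, a cytokine that drives epithelial cells towards a mesenchymal state, for 0.5, 1, 2, 4 or 8 h, or for 16, 24 or 72 h. Each of the 9 groups has 3 arrays (Affymetrix HG-U133 Plus 2.0), from 3 repeats of the experiment, except the 2 h group, which has 2. The labels list no untreated cells held as long, so treatment and time in culture cannot be told apart, and all 8 times share the same 3 untreated arrays.

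Levels below are the deposited values in log2 units, where 6.64 stands for no signal and 5.64 is the lowest possible value, and changes are differences of group means on that scale ± limma's standard error (SE). A gene is called where its moderated test in limma has an adjusted p under 0.05 after Benjamini-Hochberg adjustment over all 14929 genes. The offset inside the deposited log understates the folds of weak genes. Genes known to respond to TGF-beta changed: SMAD7 changed by 2.63 ± 0.379 at 72 h, and CDH1, which encodes E-cadherin, by -4.26 ± 0.166 (limma adjusted p = 7.53e-06 and 4.08e-14). All 3 epithelial markers tested were lower at 72 h, and their part in the fall described next was not tested. The keratins KRT8 and KRT18 averaged 14.57 and 15.21 in untreated cells and 14.24 and 14.94 at 72 h, changes of -0.33 ± 0.0772 and -0.27 ± 0.0419 (limma adjusted p = 0.00153 and 1.91e-05), and neither was called at 8 h or 24 h (adjusted p from 0.0537 to 0.806), while KRT19, another epithelial keratin, was not above the filter. EPCAM, also an epithelial marker, averaged 11.16 in untreated cells and 8.44 at 72 h. Of the 3 epithelial markers tested, none was called at 8 h, 1 was lower at 16 h, and EPCAM alone was lower at 24 h. The leukocyte marker PTPRC and the endothelial marker CDH5 did not pass the filter, and none of the 2 leukocyte, 2 endothelial and 2 erythroid markers that did was called in any of the 11 comparisons. Between 28834 and 32875 probe sets were detected per array.

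None of the mitochondrial ribosomal protein genes was called in the first 2 h with TGF-beta 1, and from 8 h on many of them fell, each by a small amount. The median of the 76 genes, taken on each array and averaged over the arrays of a group, was 11.90 ± 0.0458 (SD, n = 3) in untreated cells and 11.83 ± 0.0356 at 1 h. It was 11.65 ± 0.0415 after 8 h and 11.63 ± 0.124 after 16 h of treatment, 11.62 ± 0.0559 after 24 h and 11.54 ± 0.0512 after 72 h (SD, n = 3 each). The highest array median at 8, 24 or 72 h, 11.68, lay below the lowest untreated one, 11.86, while at 16 h the highest was 11.78. Over the time course, the moderated F test of limma called 38 of the 76 genes, 50 percent, beside 47.6 percent of all genes tested. This share is near the background. The counts by direction follow.

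**Figure D1:**
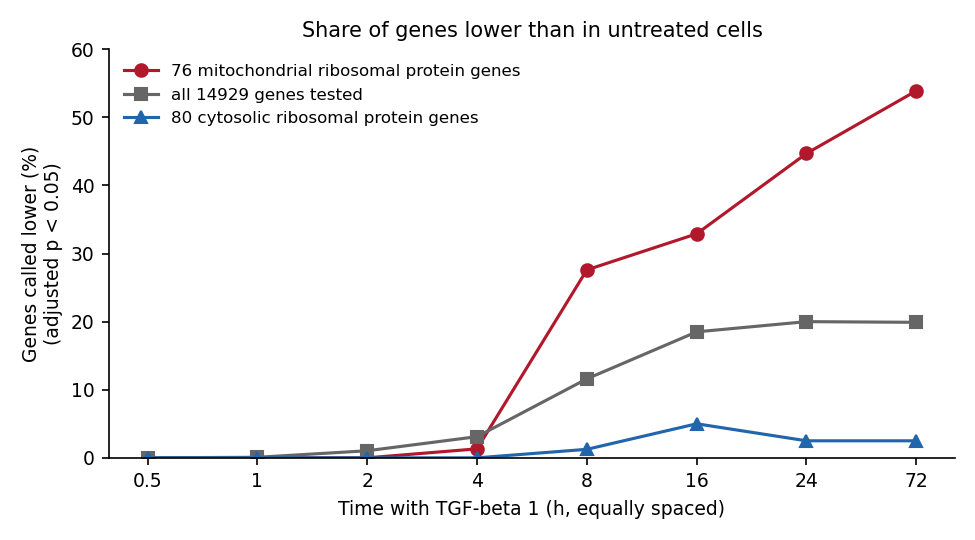
Share of genes called lower than in untreated cells (percent, vertical axis) at each time with TGF-beta 1 (h, horizontal axis, equally spaced), for the 76 mitochondrial ribosomal protein genes, all 14929 genes tested and 80 cytosolic ribosomal protein genes. The share of the mitochondrial group is 27.6 percent at 8 h and 53.9 percent at 72 h, where all genes stand at 11.6 and 19.9 percent and the cytosolic group at 1.25 and 2.50 percent.

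At 72 h, 41 of the 76 genes had fallen and 1 had risen, and 34 were not called. Over all genes tested, 19.9 percent were called lower and 18.2 percent higher at that time. The median change of the 76 genes was -0.28, beside -0.02 over all genes, and 69 of the 76 lay below zero. The 76 genes were brighter and more precisely measured than genes in general. Their median level was 11.71 and their median SE at 72 h was 0.112, beside 9.68 and 0.166 over all genes tested. Smaller changes can thus be called in them, and what part this has in the shares called at each time was not tested. With a stricter filter that kept 9353 genes, 41 of these genes were lower and 1 higher at 72 h. Beside them, 4622 of the 9353 genes were called in either direction, where the main fit called 5690 of 14929. The 4622 were not split by direction, so they cannot be set beside the 19.9 percent called lower. The changes were small: 8 of the called genes fell by more than 1.5-fold and 2 by more than 2-fold. The largest fall was that of MRPL4, whose bacterial counterpart lines the tunnel through which the new protein leaves the ribosome. Its values were 10.57, 10.69 and 10.69 on the untreated arrays and 9.37, 9.72 and 9.74 at 72 h. All 72 h arrays lay below all untreated ones, and the change was -1.04 ± 0.134, or 2.06-fold lower (limma adjusted p = 1.72e-06). MRPL54, a large-subunit protein with no bacterial counterpart, measured 11.82, 11.71 and 11.67 in untreated cells and 10.87, 10.67 and 10.56 at 72 h. It changed by -1.03 ± 0.150, or 2.05-fold lower (limma adjusted p = 8.22e-06). MRPS18B, 1 of the 3 human relatives of bacterial S18, measured 12.14, 11.85 and 11.92 in untreated cells and 11.21, 11.13 and 11.09 at 72 h. Its groups did not overlap either, with a change of -0.83 ± 0.0974, or 1.78-fold (limma adjusted p = 4.60e-07). MRPL27, whose bacterial counterpart reaches into the site where peptide bonds form, measured 12.36, 12.52 and 12.47 in untreated cells and 11.84, 11.65 and 11.78 at 72 h, a change of -0.70 ± 0.0869, or 1.62-fold (limma adjusted p = 1.05e-06). MRPL54, MRPS18B and MRPL27 remained called in all 40 other settings tried, and MRPL4 in 39.

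The only gene of the 76 called higher at 72 h was MRPS10, a small-subunit protein with a bacterial counterpart. It measured 11.25, 10.96 and 11.31 in untreated cells and 11.58, 11.53 and 11.36 at 72 h. All 72 h arrays lay above the highest untreated one, the gap being small, and the change was 0.32 ± 0.100 (limma adjusted p = 0.0152). Its F test over the time course missed the threshold (adjusted p = 0.0506). Without untreated replicate 2 its change was 0.21 (adjusted p = 0.117), and without 72 h replicate 1 or 2 it was also not called (adjusted p = 0.0691 and 0.0534). Its other probe sets, in order of brightness, gave changes of 0.10 ± 0.0817 and -0.02 ± 0.101 (adjusted p = 0.346 and 0.914), and the mean of all 3 gave 0.13 (0.153).

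**Figure D2:**
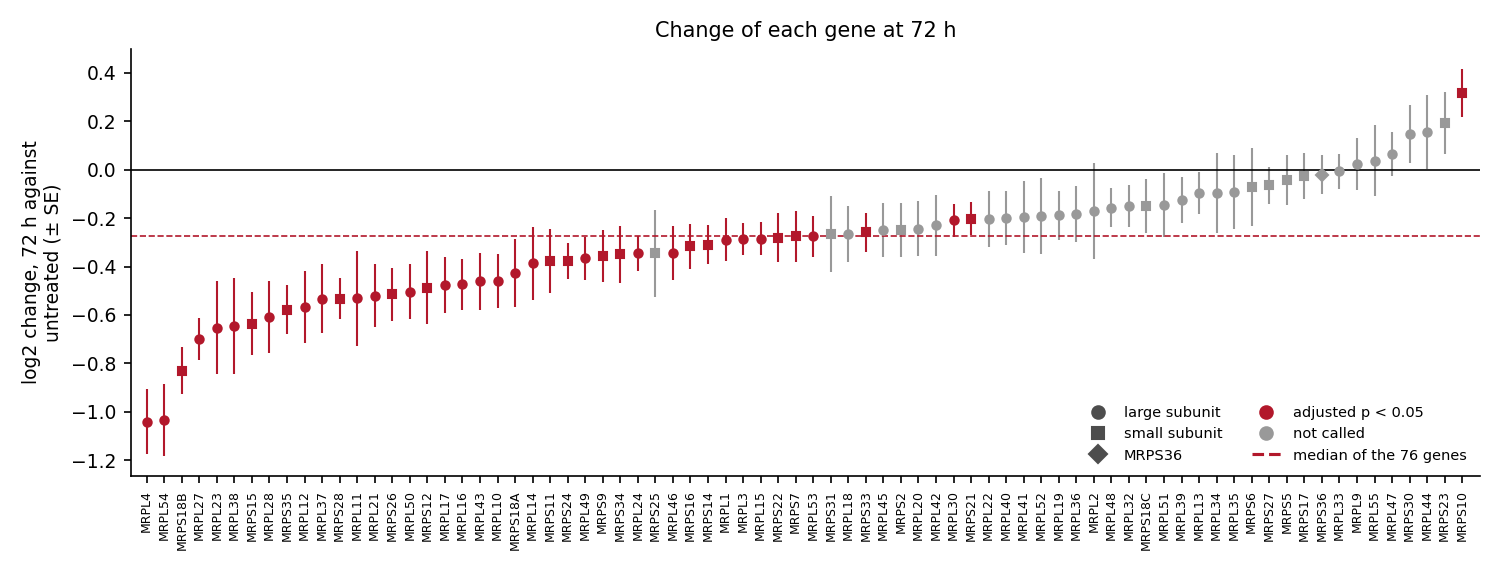
Change of each of the 76 genes at 72 h against untreated cells (log2, points, with bars of ± 1 SE, n = 3 arrays per group), ordered by size, with large-subunit genes as circles, small-subunit genes as squares and MRPS36 as a diamond. Genes with an adjusted p under 0.05 are red, and the dashed line is the median of the 76 genes at -0.28. MRPL4 and MRPL54 lie at the low end, and MRPS10 is the only red point above zero.

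The stretch before the transcription start is shown for 3 of the 4 genes with the largest falls at 72 h, and for MRPS10, which rose, so that the motifs counted next can be seen in place. The sequences are the 250 bases before the start in RefSeq on GRCh38.p14, 5′ to 3′ on the strand of the gene, at chr19:10251701-10251950 (plus strand) for MRPL4, chr6:30617590-30617839 (plus strand) for MRPS18B, chr17:50373185-50373434 (minus strand) for MRPL27 and chr6:42217862-42218111 (minus strand) for MRPS10. Capitals mark the 8-letter NRF1 core in MRPS18B and the ETS motif in MRPL27, both defined in the next paragraph.
MRPL4: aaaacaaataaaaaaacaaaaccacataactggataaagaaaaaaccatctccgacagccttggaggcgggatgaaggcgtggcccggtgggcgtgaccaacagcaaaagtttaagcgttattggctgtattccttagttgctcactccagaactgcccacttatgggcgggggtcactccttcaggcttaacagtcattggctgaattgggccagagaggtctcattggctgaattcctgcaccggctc
MRPS18B: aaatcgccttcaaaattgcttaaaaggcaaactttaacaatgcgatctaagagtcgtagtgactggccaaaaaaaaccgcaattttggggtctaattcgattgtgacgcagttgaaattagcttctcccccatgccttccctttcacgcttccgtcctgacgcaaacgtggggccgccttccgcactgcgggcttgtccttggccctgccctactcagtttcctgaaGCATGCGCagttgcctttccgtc
MRPL27: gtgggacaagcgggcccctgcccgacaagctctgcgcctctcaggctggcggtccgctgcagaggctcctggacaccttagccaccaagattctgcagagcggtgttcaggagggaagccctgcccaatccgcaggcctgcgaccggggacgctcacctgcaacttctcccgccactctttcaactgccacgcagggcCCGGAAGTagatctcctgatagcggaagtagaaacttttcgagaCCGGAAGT
MRPS10: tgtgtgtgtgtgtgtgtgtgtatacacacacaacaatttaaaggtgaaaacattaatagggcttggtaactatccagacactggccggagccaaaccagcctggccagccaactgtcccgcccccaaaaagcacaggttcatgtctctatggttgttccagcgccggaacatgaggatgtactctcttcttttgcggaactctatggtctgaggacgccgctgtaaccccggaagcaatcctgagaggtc

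Windows of 300 bases, 250 before and 50 after the start, were found for 68 of the 76 genes, and for 27305 genes in all. The latter were neither limited to the genes tested nor matched to the 76 genes by level, and what part this has in the shares below was not tested. They were searched on both strands for motifs of factors known to act on nuclear genes for mitochondrial proteins, and of the TGF-beta pathway. The YY1 motif AAGATGGC was in 20 of the 68 windows, 29.4 percent, beside 3.03 percent of all windows. The ETS motif CCGGAAGT, to which the GABP factor binds, was in 11, 16.2 percent, beside 4.44 percent of all. The MRPL27 window holds it 8 and 52 bases before the start. The core of the NRF1 motif, GCATGCGC, was in 6, 8.82 percent, beside 3.27 percent. The MRPS18B window holds the core 23 bases before the start, and the YY1 motif after the start, as does the MRPS10 window. The E-box CACGTG, to which MYC binds, was in 7 windows, 10.3 percent, beside 7.43 percent, and the SMAD palindrome GTCTAGAC was in none of the 68, beside 0.201 percent of all. The YY1 motif was in 8 of the 36 windows of genes that fell at 72 h and in 12 of the 32 others, and the ETS motif in 7 and 4. The MRPL4 and MRPL54 windows held none of these motifs. These are matches of letters, and binding was not measured. The median GC content was 60.2 percent in the 68 windows and 58.3 percent in all.

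The first of the 76 genes to be called was MRPL50, for a large-subunit protein with no bacterial counterpart. At 0.5, 1 and 2 h, limma called none of the 76 genes, beside 0.0067, 0.0804 and 1.04 percent of all genes lower and 0.127, 0.462 and 1.98 percent higher, and an unadjusted p under 0.05 was reached by 0, 1 and 3 of them, all lower. At 4 h it called MRPL50 alone, 1 gene lower or 1.32 percent, beside 3.11 percent of all genes lower and 6.04 percent higher. This share is below that of all genes, so the call does not date the fall of the group. MRPL50 measured 12.55, 12.63 and 12.47 in untreated cells, 12.03, 11.96 and 12.33 at 4 h, 11.89, 11.83 and 12.02 at 16 h and 12.01, 11.96 and 12.17 at 72 h. The arrays from 4 h on all lay below the untreated ones, the 4 h array of experiment 3 least so. The 2 h arrays of MRPL50, at 12.40 and 12.38, also lay below all untreated ones, as did 1 h replicates 2 and 3, at 12.45 and 12.43. Its change was -0.44 ± 0.114 at 4 h (limma adjusted p = 0.0138), -0.56 at 8 h and -0.64 at 16 h, and it was -0.60 after 24 h and -0.50 after 72 h, with the same SE. The 4 h call was lost without untreated replicate 2 (adjusted p = 0.0563), 4 h replicate 1 (0.0687) or 4 h replicate 2 (0.0937), and without 4 h replicate 3 the test called 2 of the 76 genes. The call of MRPL50 was also lost in a fit on only the groups compared (0.0894) and with a probe set not marked x or s (-0.49, 0.057).

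At 8 h, 21 of the 76 genes had fallen and none had risen, beside 11.6 percent of all genes lower and 11.4 percent higher. Limma called no gene of the group higher, and none reached an unadjusted p under 0.05 in that direction. The median change was -0.22 (-0.03 over all genes), and 70 genes lay below zero. MRPL4 led, at 9.85, 10.12 and 10.05 on the 8 h arrays, all below the untreated ones, with a change of -0.64 ± 0.134 (limma adjusted p = 0.00115). MRPS6, a small-subunit protein with a bacterial counterpart, measured 11.25, 11.31 and 11.14 in untreated cells, 10.83, 10.37 and 10.82 at 8 h and 11.17, 11.07 and 11.24 at 72 h. It was called at 8 h (-0.56 ± 0.161, limma adjusted p = 0.0135), and its change at 72 h was -0.07 (adjusted p = 0.758), with the 72 h and untreated arrays overlapping. The 8 h call of MRPS6 was lost without 8 h replicate 2, its lowest array (adjusted p = 0.101). Without 8 h replicate 1, 13 of the 76 genes were called at this time, and calls over all genes, in either direction, fell from 3443 to 2618.

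At 16 h, 25 genes had fallen and 1 had risen, beside 18.5 percent of all genes lower and 15.1 percent higher, with a median change of -0.21 (-0.04 over all genes). MRPL17, a large-subunit protein with a bacterial counterpart, measured 12.16, 12.18 and 12.35 in untreated cells and 11.40, 12.01 and 11.58 at 16 h. Its groups did not overlap, though the 16 h arrays spread widely, and it changed by -0.57 ± 0.116 (limma adjusted p = 0.00053). MRPL4 changed by -0.80 ± 0.134 at this time. MRPL9, of the large subunit and the 1 gene called higher, measured 12.35, 11.98 and 12.12 in untreated cells and 12.50, 12.50 and 12.36 at 16 h, a change of 0.31 ± 0.108 (limma adjusted p = 0.0307). Its lowest 16 h array barely exceeded the highest untreated one. The call was lost without untreated replicate 2 (adjusted p = 0.158), untreated replicate 3 (0.0777), 16 h replicate 1 (0.0908) or 16 h replicate 2 (0.0887).

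At 24 h, 34 genes had fallen and none had risen, beside 20 percent of all genes lower and 15.2 percent higher, and none of the 76 reached an unadjusted p under 0.05 for a rise in limma. The median change was -0.26 (-0.05 over all genes). The 8 largest falls were those of MRPL4 (-0.83), MRPL54 (-0.71), MRPL12 (-0.68), MRPL50 (-0.60), MRPS26 (-0.54), MRPS28 (-0.53), MRPS15 (-0.53) and MRPL43 (-0.52), all log2 changes with adjusted p from 3.49e-05 to 0.0027. MRPL12, whose bacterial counterpart forms the flexible stalk that recruits translation factors, measured 11.67, 11.87 and 11.38 in untreated cells and 10.72, 10.85 and 11.32 at 24 h. The 24 h array of experiment 3 lay just below the lowest untreated array, that of the same experiment, and the others far below. The change was -0.68 ± 0.150, or 1.60-fold (limma adjusted p = 0.00109), and at 72 h, where the arrays read 11.12, 11.12 and 10.97, it was -0.57. MRPS28 measured 11.84, 11.79 and 11.97 in untreated cells and 11.28, 11.43 and 11.29 at 24 h, with little spread within each group, a change of -0.53 ± 0.0861 (limma adjusted p = 3.55e-05). The 24 h count depended on single arrays: it was 22 without untreated replicate 3, 19 without 24 h replicate 1, 22 without 24 h replicate 2 and 17 without the 3 arrays marked r in the deposited table, of which 2 are 24 h arrays. In that last fit MRPS15 and MRPL43 were not called (adjusted p = 0.115 and 0.0546).

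**Figure D3:**
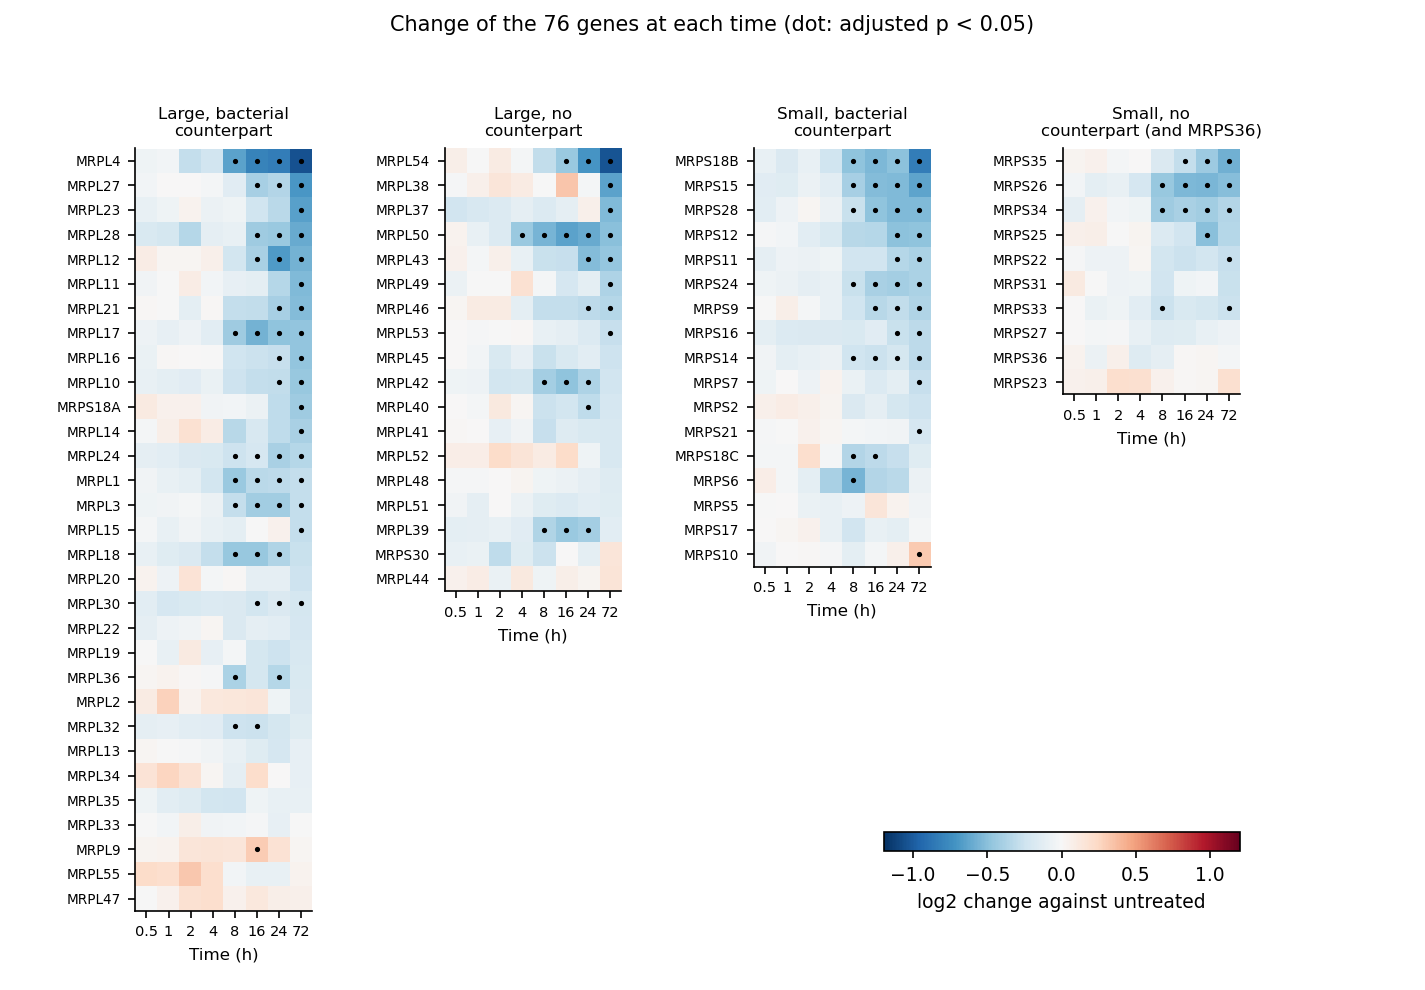
Log2 change of each of the 76 genes (rows, by subunit and by whether a bacterial counterpart is known) against untreated cells at each time (columns, h), blue for lower and red for higher, with a dot where the adjusted p was under 0.05. Dots are absent before 4 h, begin with MRPL50 at 4 h and mark 21 genes at 8 h and 42 at 72 h, all blue except MRPL9 at 16 h and MRPS10 at 72 h.

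**Figure D4:**
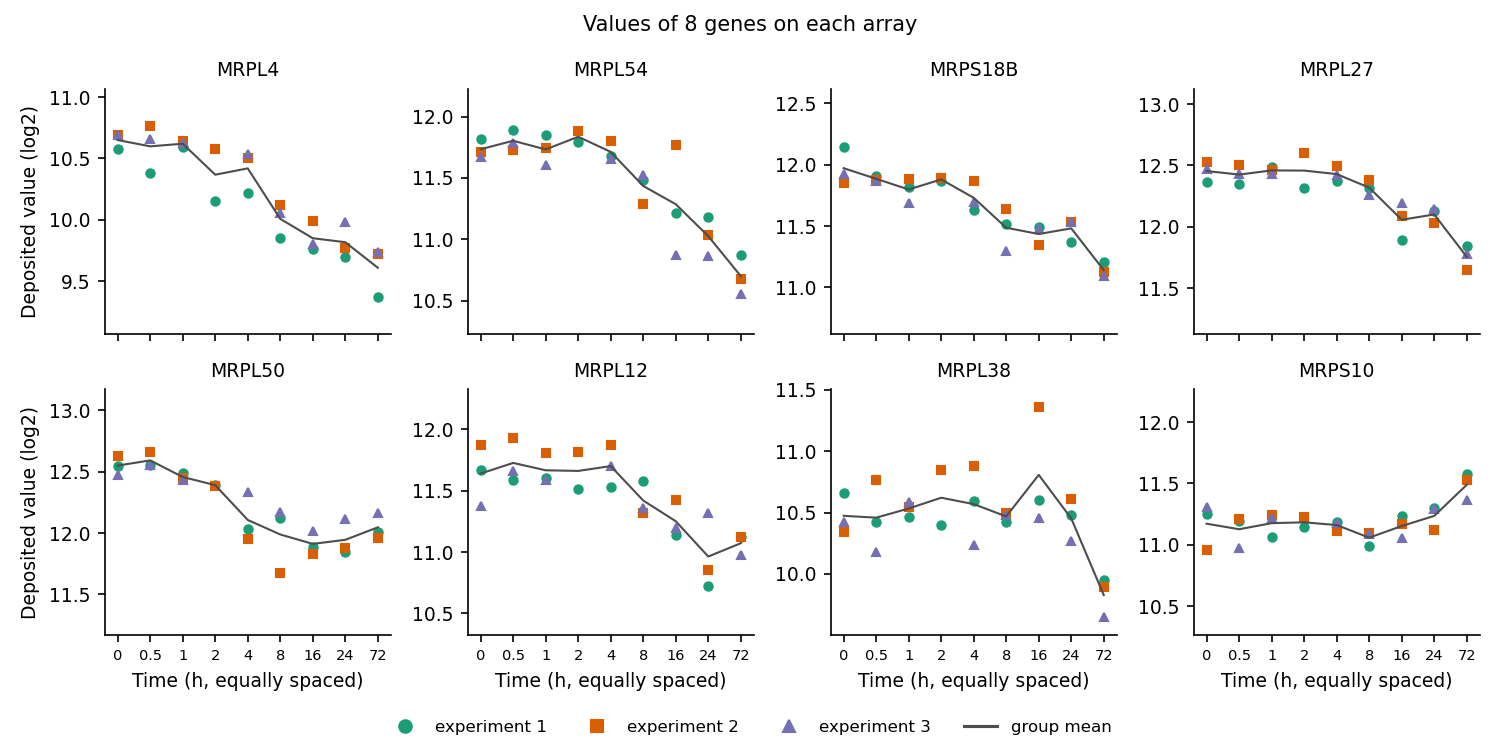
Deposited values (log2, vertical axis, each panel spanning the same range) of 8 genes on every array against time (h, horizontal axis, equally spaced), by experiment (symbols), with the group mean as a line. MRPL4, MRPL54, MRPS18B and MRPL27 are lowest at 72 h, MRPL50 and MRPL12 reach their lowest means at 16 and 24 h, MRPL38 is low only on the 72 h arrays, and MRPS10 is highest there.

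Between 24 h and 72 h, 5 of the 76 genes fell and none rose, beside 4.37 percent of all genes lower and 4.62 percent higher. The untreated arrays take no part in this difference, though they do in the shared estimate of the spread. That share, 6.58 percent, is near the background, and the median change was -0.04 (0.03 over all genes). In limma, 8 of the 76 were lower and 3 higher at an unadjusted p under 0.05. MRPL38, a large-subunit protein with no bacterial counterpart, measured 10.66, 10.34 and 10.42 in untreated cells, 10.60, 11.36 and 10.46 at 16 h, 10.48, 10.61 and 10.27 at 24 h and 9.95, 9.89 and 9.65 at 72 h. Its 72 h arrays lay below every other array, and 1 array at 16 h stood high. It changed by -0.62 ± 0.197 from 24 to 72 h (limma adjusted p = 0.0497), a call that was lost in 27 of 40 other settings. MRPL37, also of the large subunit and with no bacterial counterpart, measured 11.99, 11.60 and 11.86 in untreated cells, 12.01, 12.09 and 11.53 at 24 h and 11.44, 11.22 and 11.19 at 72 h, where all arrays lay below those of the other groups named. It changed by -0.59 ± 0.143 from 24 to 72 h (limma adjusted p = 0.0106). The call of MRPL37 was lost without 24 h replicates 1 or 2 or 72 h replicates 2 or 3 (adjusted p from 0.0519 to 0.0634). MRPL27 changed by -0.34 ± 0.0869 (limma adjusted p = 0.0147, lost at 0.0612 without 24 h replicate 1 and at 0.0944 without 72 h replicate 2) and MRPS18B by -0.34 ± 0.0974 (0.0307, lost without any 1 of 5 of the 6 arrays, at 0.0505 to 0.108). MRPL15, of the large subunit, measured 13.51, 13.46 and 13.33 in untreated cells, 13.42, 13.51 and 13.54 at 24 h and 13.15, 13.05 and 13.25 at 72 h, a change of -0.34 ± 0.0699 from 24 h (limma adjusted p = 0.00383). Without 24 h replicates 1, 2 or 3, the count was 2, 2 and 3, and without 72 h replicates 1, 2 or 3 it was 3, 1 and 2. Without the 3 arrays marked r, 1 gene was called.

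Against 1 h, a difference that also leaves the untreated arrays out except in the spread, 25 genes had fallen at 24 h and none had risen, beside 17.8 percent of all genes lower and 12.9 percent higher. At 72 h, 34 had fallen and 1, MRPS10, had risen, beside 18.7 percent of all genes lower and 16.4 percent higher. The median changes were -0.23 at both times. From 1 to 72 h MRPL54 changed by -1.03 ± 0.150, MRPL4 by -1.01 ± 0.134 and MRPL38 by -0.71 ± 0.197, and MRPS10 by 0.31 ± 0.100 (limma adjusted p = 9.39e-06, 2.93e-06, 0.00702 and 0.0177). MRPS10 was not called without 1 h replicate 1 (0.0913) or 72 h replicates 1 or 2 (0.0784 and 0.0609). The 24 h count was 15 without 1 h replicate 2 and 12 without 24 h replicate 1, where calls over all genes fell from 4590 to 3663 and 3662. The 72 h count was 21 without 1 h replicate 2, where calls over all genes fell from 5240 to 4390.

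By place in the ribosome, 25 of 49 large-subunit genes and 16 of 26 small-subunit genes had fallen at 72 h, with medians of -0.26 and -0.30. Among proteins with a bacterial counterpart 28 of 48 had fallen, and among those without 13 of 27, with medians of -0.28 and -0.27, and differences between these classes were not tested. MRPS36 belongs to neither subunit, since its protein is now known as KGD4, a part of the 2-oxoglutarate dehydrogenase complex, and its change at 72 h was -0.02 ± 0.0791 (limma adjusted p = 0.868). MRPS18A and MRPS30 are counted here in the large subunit, where their proteins are found.

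Of the 3 genes for the stalk that receives translation factors, MRPL10 had fallen at 72 h by 0.46 and MRPL12 by 0.57 on the log2 scale (limma adjusted p = 0.00214 and 0.00431), the latter turning to 0.01 with probe sets averaged and 0.59 with one not marked x or s, neither called. For MRPL11 the groups overlapped: its lowest untreated array, at 11.02, lay below its highest 72 h array, at 11.05, and the untreated arrays spread widely. Its change was -0.53 (limma adjusted p = 0.0361), or -0.29 (0.26) without untreated replicate 1, and the call was also lost without untreated replicate 3 or any 1 of the 72 h arrays (0.0589 to 0.0919). Around the exit tunnel, where not every protein is named here, MRPL4, MRPL23 (-0.65 ± 0.190, limma adjusted p = 0.00899) and MRPL24 (-0.35 ± 0.0713, 0.00048) had fallen. MRPL22 changed by -0.20 (0.174) and MRPL45, which helps to hold the ribosome to the inner membrane, by -0.25 (0.0842), and neither was called. The call of MRPL23 was lost without untreated replicate 1, its highest array at 12.58 (adjusted p = 0.0745). MRPL3, a core large-subunit protein with 1 of the 6 smallest F test p-values of the group (adjusted p = 7.74e-06), measured 13.54, 13.38 and 13.54 in untreated cells, 13.03, 13.07 and 13.11 at 24 h and 13.26, 13.18 and 13.17 at 72 h. It was lowest at 16 and 24 h (-0.42 ± 0.0666 at each) and its change at 72 h was -0.29. The other large-subunit falls over 1.5-fold at 72 h were those of MRPL28 (-0.61 ± 0.149) and MRPL38 (-0.65 ± 0.197, limma adjusted p = 0.0121), the latter lost without untreated replicate 1 (0.0556) or 72 h replicate 3 (0.0601) and turned to 0.26 (0.293) with probe sets averaged. The other probe sets of MRPL38 in that average had mean levels of 7.49 and 6.77 and did not pass the filter.

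In the small subunit, MRPS12, the counterpart of a bacterial protein of the decoding site, had fallen at 72 h by 0.49 on the log2 scale, MRPS15 by 0.64, MRPS35 by 0.58, MRPS28 by 0.53 and MRPS26 by 0.51 (limma adjusted p from 3.28e-05 to 0.0142). MRPS34, MRPS22, MRPS16 and MRPS14 had fallen by 0.35, 0.28, 0.32 and 0.31. The calls of MRPS12 and MRPS16 were lost without 1 untreated array each (0.054 and 0.0645), that of MRPS34 without untreated replicate 2 or 72 h replicates 2 or 3 (0.0534 to 0.11), and that of MRPS22 without any 1 of 5 of the 6 arrays compared or with each array centred (0.0547 to 0.12). With probe sets averaged, MRPS26 turned to 0.09 (0.72), and MRPS12, MRPS15, MRPS22 and MRPS14 were not called (0.0546 to 0.262). The other probe set of MRPS26, averaged in here, had a mean level of 6.82 and did not pass the filter. MRPS2 changed by -0.25, MRPS25 by -0.35 and MRPS31 by -0.27, and none of these was called at 72 h (adjusted p = 0.0867, 0.136 and 0.194). Against 1 h, MRPS2 was lower at 72 h, by 0.34 on that scale (adjusted p = 0.0208), a call lost without 1 h replicates 1 or 2 or 72 h replicate 2 (0.0652 to 0.0699). MRPS25 had been called at 24 h, at -0.50 (adjusted p = 0.0324), lost without untreated replicate 2 or 24 h replicates 1 or 2 (0.104 to 0.226).

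Of the 76 genes, 23 were called in none of the 11 comparisons. In the large subunit these were MRPL2, MRPL13, MRPL19, MRPL20, MRPL22, MRPL33, MRPL34, MRPL35, MRPL41, MRPL44, MRPL45, MRPL47, MRPL48, MRPL51, MRPL52, MRPL55 and MRPS30, and among the rest MRPS5, MRPS17, MRPS23, MRPS27, MRPS31 and MRPS36. A missed threshold does not show an unchanged level: MRPL20 changed by -0.24 ± 0.113 and MRPL44, which resembles an RNase, by 0.16 ± 0.154 at 72 h. MRPL33 lay closest to zero at 72 h among these, at -0.01 ± 0.0715. A further set of genes was called at 8, 16 or 24 h and not at 72 h. MRPL39 had changed by -0.44 at 16 h (-0.09 and not called with probe sets averaged) and -0.13 at 72 h, with a difference from 24 to 72 h of 0.28 ± 0.0950 that missed the threshold (limma adjusted p = 0.0727). The other probe set of MRPL39 in that average had a mean level of 7.17 and did not pass the filter. MRPL18 had changed by -0.46 at 8 and at 16 h and by -0.26 at 72 h, and MRPL42 by -0.48 at 16 h and -0.23 at 72 h, and their differences from 24 to 72 h were not called either (adjusted p = 0.688 and 0.555).

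At 72 h the fall was there within each experiment as the labels number them. The array numbers of untreated arrays 2 and 3 run the other way than in the other groups, and deviations of untreated arrays from their group mean had a median correlation of 0.03 with those of same-numbered arrays and -0.02 with others, so which untreated array belongs to experiment 2 and which to experiment 3 rests on the labels alone. Set against the untreated array of the same experiment, the median change of the 76 genes at 72 h was -0.27, -0.27 and -0.29 in experiments 1, 2 and 3, with 70, 67 and 70 genes below zero, while the medians over all genes were -0.03, -0.01 and -0.02. With untreated arrays 2 and 3 exchanged, tried after seeing the data, experiments 2 and 3 gave -0.30 and -0.25 at 72 h, with 70 and 59 genes below zero. At 24 h the medians, by the labels, were -0.38, -0.18 and -0.18, and at 8 h they were -0.25, -0.14 and -0.23. At 16 h experiment 2 stood apart, at -0.01 beside -0.30 and -0.23. Before 8 h the experiments differed in sign, from -0.22 in experiment 1 to 0.08 in experiment 2 at 4 h. Between 24 and 72 h they also differed in sign, at 0.10, -0.06 and -0.15. Across the 26 arrays, the mean correlation between pairs of these genes was 0.26 once the group means had been removed, beside 0.0041 between all genes tested, a description over arrays that share their normalization and their experiments.

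**Figure D5:**
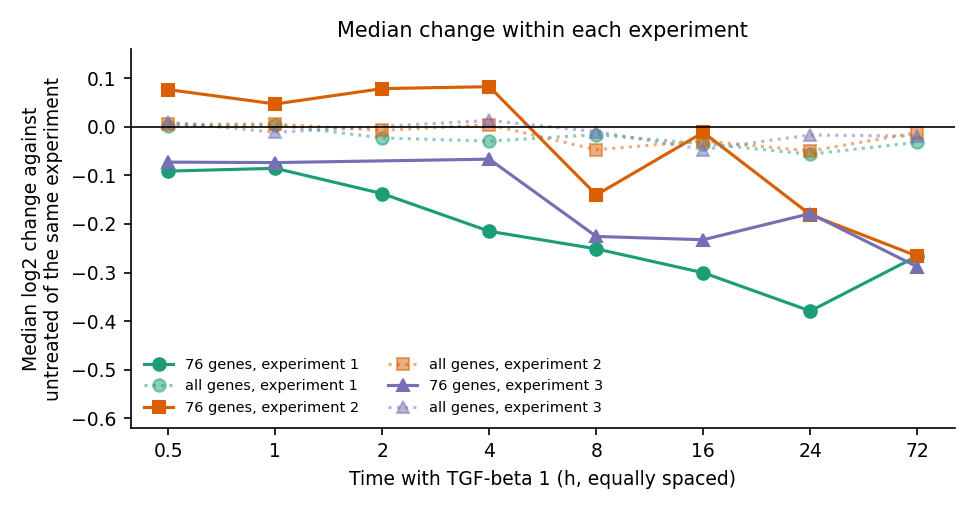
Median log2 change (vertical axis) of the 76 genes (solid lines) and of all genes tested (dotted lines) against the untreated array of the same experiment, at each time (h, horizontal axis, equally spaced), for experiments 1, 2 and 3. The 3 solid lines meet at -0.27 to -0.29 at 72 h and lie apart before 8 h, when that of experiment 2 is above zero.

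A measure of RNA quality moved with time too. The actin 3'/5' ratio, between probe sets at the 3' and 5' ends of the transcript, was 1.10 ± 0.0298 (SD, n = 3) in untreated cells and 1.03 ± 0.0102 at 8 h. It was 1.00 ± 0.0264 after 24 h and 1.01 ± 0.0337 after 72 h, and its part in the fall was not tested. In the 0.5 h group, where no gene of the 76 was called, the ratio was 1.11 ± 0.0463. The 1 h group also had no call, and its ratio was 1.03 ± 0.0295. A ratio of 1.11 ± 0.0239 (SD, n = 2) was found in the 2 h group, again without a call. With only MRPL50 called, the 4 h ratio was 1.04 ± 0.0251. The 16 h ratio, with 25 genes lower, was 1.02 ± 0.0208. The fewest probe sets of all arrays, 28834, were detected on 24 h replicate 1. The 72 h arrays carry the last array numbers in the deposited table, and whether they were processed apart cannot be told apart from their time.

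Other probe sets of the same genes gave a mixed picture. A second or further probe set exists for 35 of the 76 genes, 57 in all, of which 45 passed the filter in a fit over all probe sets. Of these 45, 23 belong to genes whose own probe set was lower at 72 h, and of the 23, 17 were below zero, 8 were called lower and 0 were called higher. The 23 were picked by the call of another probe set on the same arrays. The shares below zero or called among all 27487 probe sets of that fit were not worked out, so these counts have no background. For MRPS18B the second probe set changed by -1.06 ± 0.131 (limma adjusted p = 9.84e-07). For MRPL4 a second probe set changed by -0.83 ± 0.162 (adjusted p = 0.000277) and another by 0.34 ± 0.202 (0.205), with mean levels of 9.76 and 8.82. In a fit that preferred probe sets not marked as matching several transcripts, MRPL4 was represented by this last one and was not lower at any time. For MRPL12, MRPS15, MRPL43, MRPS11 and MRPS14 another probe set also lay above zero at 72 h, by 0.04 to 0.59, none of them called. In the reverse case, genes chosen after their values were seen, MRPL9 changed by 0.02 ± 0.108 at 72 h with its brightest probe set and by 0.54 ± 0.168 with another (adjusted p = 0.894 and 0.0141), and MRPS5 changed by -0.04 ± 0.104 with its brightest probe set, while others fell by 0.79 ± 0.125 and 1.00 ± 0.204 on the log2 scale (adjusted p = 2.44e-05 and 0.000464).

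The authors' deposited table gives a p from a model with experiment and time, without adjustment. By it, 25 of the 76 genes were lower at 72 h with a p under 0.001, and 0 were higher, beside 13 percent of all genes tested lower and 12 percent higher. At 1 h, where limma called none, the authors' deposited table has 1 of the 76 lower and 0 higher with such a p, beside 0.214 and 0.643 percent of all genes. The authors' deposited table further selects changes over 2-fold with such a p, and at 72 h this selection held 3 of the 133 probe sets, for MRPS18B, MRPL4 and MRPL54, a smaller share than the 5.92 percent of all probe sets. At 1 h the authors' deposited table selected 1 of the 133, for MRPS5, beside 0.23 percent of all.

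Genes that work with the mitochondrial ribosome were followed in lists that share no member with the 76, and their counts at 72 h stand beside the 19.9 percent of all genes called lower and 18.2 percent called higher. Of 6 further mitoribosome proteins whose symbols in the file begin otherwise, 3 had fallen at 72 h: ICT1 (now MRPL58, which frees stalled chains) by 0.40 on the log2 scale, PTCD3 by 0.40 and MRP63 (now MRPL57) by 0.36. The call of PTCD3 was lost without untreated replicates 1 or 3 or 72 h replicates 1 or 2 (adjusted p from 0.0552 to 0.0798). The call of ICT1 was lost without untreated replicate 1 or 72 h replicates 2 or 3 (0.0607 to 0.103). The others, DAP3, CHCHD1 and GADD45GIP1, changed by 0.17, 0.01 and 0.03 and were not called. Of 17 aminoacyl-tRNA synthetases of mitochondria, which charge its tRNAs, 8 had fallen at 72 h, 47.1 percent, and 0 had risen, with a median of -0.30. Among them were SARS2 (-0.79 ± 0.190), LARS2 (-0.79 ± 0.134), MARS2 (-0.76 ± 0.220) and CARS2 (-0.60 ± 0.136), for serine, leucine, methionine and cysteine. The call of MARS2 was lost without untreated replicate 2 (adjusted p = 0.0808).

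Of 15 translation factors of mitochondria, 4 had fallen at 72 h, 26.7 percent, and 0 had risen, with a median of -0.20, a share not far from the 19.9 percent of all genes. GFM1, the elongation factor that moves the ribosome along, changed from 12.67 to 11.96 on average (-0.70 ± 0.130, limma adjusted p = 0.000146, but -0.28 and 0.113 with its probe sets averaged), and the initiation factor MTIF2 by -0.50 ± 0.137 (0.00567). CCDC44 (now TACO1, an activator of COX1 translation) changed by -0.47 ± 0.101, and RMND1 was called at 24 h, at -0.37 ± 0.138, a call lost without untreated replicates 1 or 3 or 24 h replicate 1 (adjusted p = 0.173, 0.0537 and 0.229). Of 23 assembly and rRNA modification genes, 3 had fallen at 72 h, 13 percent, below the share of all genes, and 2 had risen, with a median of -0.07. C4orf14 (now NOA1, a GTPase needed for the small subunit) went against the ribosomal proteins, from 11.55 to 12.46 (0.91 ± 0.149, limma adjusted p = 3.72e-05). METT5D1 (now METTL15, an rRNA methyltransferase) changed by -0.77 ± 0.173, and GTPBP5 (now MTG2, a GTPase for large-subunit assembly) by -0.69 ± 0.178, though by 0.48 (adjusted p = 0.345) with a probe set not marked x or s. MTERFD2 (now MTERF4) changed by -0.54 ± 0.124 at 24 h, a call lost without the 3 arrays marked r (0.0537).

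Of 16 regulators of mitochondrial gene expression, 3 had fallen at 72 h, 18.8 percent, which is at the share of all genes, and 0 had risen, with a median of -0.15, and at 24 h 6 had fallen, 37.5 percent beside 20 percent of all, and 1 had risen. GABPB2, in the file the symbol of the gene now called GABPB1, a subunit of the GABP factor, changed by -0.74 ± 0.124 at 24 h and -0.79 ± 0.124 at 72 h (limma adjusted p = 5.07e-05 and 2.05e-05), and its partner GABPA by -0.34 ± 0.113 and -0.15 ± 0.113 (0.021 and 0.308). With probe sets averaged GABPB2 turned to 0.15 at 24 h and 0.22 at 72 h, neither called (0.339 and 0.131). The 24 h call of GABPA was lost without untreated replicate 2, 24 h replicates 1 or 2, or the 3 arrays marked r (0.0503 to 0.123). The nuclear receptor ESRRA changed by -0.73 ± 0.186 at 72 h (0.00327), and by -0.46 (0.0726) with probe sets averaged. MYC changed by -0.65 ± 0.177 at 24 h (0.00603) and -0.22 ± 0.177 at 72 h (0.357), the first lost without 24 h replicate 3 (0.0567) and turned to 0.07 (0.838) with probe sets averaged. PPRC1, a coactivator, was higher at 24 h (0.47 ± 0.164, adjusted p = 0.0292), a call lost without untreated replicates 1 or 2 or 24 h replicates 1 or 2 (0.0761 to 0.193). YY1 and NRF1 themselves changed by 0.09 and 0.13 at 72 h and were not called (adjusted p = 0.418 and 0.474).

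Of 80 genes for ribosomal proteins of the cytosol, 2 were lower and 5 higher at 72 h, with a median change of 0.00. At 24 h, 2 were lower and 2 higher. Many of these genes lie near the top of the scale, as RPLP2 does at 14.83 in untreated cells and 15.05 at 72 h (0.21 ± 0.0516, limma adjusted p = 0.00215, though -0.10 and 0.65 with probe sets averaged), and what part this has in the counts was not tested. The larger changes were in paralogs: RPL39L changed by -1.05 ± 0.282 at 24 h, lost without untreated replicate 1 (adjusted p = 0.0556), RPL22L1 by -0.45 ± 0.129 at 24 h, lost without 24 h replicate 3 (0.083), and RPL10L by 0.71 ± 0.180 at 72 h. The difference between the cytosolic and the mitochondrial group was not tested.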

How the data were processed

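The arrays measured 54675 probe sets per RNA sample of A549 cells. Per the file headers, the authors made trimmed means of perfect-match minus mismatch differences with the program readaffy (scale constant 1000, about 20 percent trimmed), quantile-normalized them against 1 array, and deposited them as log10(max(x+50,0)+50). These log10 values were converted to log2 here. On each array the probe sets had a median of 7.96. Per the file headers, the authors' p-values and ratios (fold changes) come from a model with experiment and time, unadjusted. The deposited quality table, per the file headers, gives counts of detected probe sets and the actin ratio. Scanned intensities were not used here.

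A gene was represented by its brightest probe set (mean of 26 arrays), and genes above the array median on at least 2 arrays were tested, which removed 4649. The comparisons used R 4.3.3 with the packages data.table (1.17.8) and limma (3.58.1; lmFit, eBayes with an intensity trend, 17 residual degrees of freedom, two-sided tests), checked on simulated data. The number of arrays limits the precision. The p-values set a change against the spread between arrays within groups, taken over all 9 groups and moderated by limma. The main fit does not pair arrays by experiment, so differences between experiments are part of that spread. The members, gene lists and tests were chosen with earlier results of these data known. Named genes are, among called genes whose groups do not overlap, up to 8 with the largest changes each way at 4, 24 and 72 h and up to 3 in other comparisons, the 6 smallest F test p-values, and up to 4 of each related list; other members are described by role. Array numbers in the labels stand for the experiment and so pair the arrays. Deviations of arrays with the same number had a median correlation of 0.15 (-0.24 to 0.53, 100 pairs), and those with different numbers -0.06 (200 pairs). For pairs with an untreated array the medians were 0.03 (23 pairs) and -0.02 (46 pairs). The experiment as a block was an alternative, as were other filters, scalings, probe set choices and thresholds, and leaving out each array. Promoter windows come from RefSeq on GRCh38.p14.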

Additional observations from a re-analysis of the deposited data

How the results depend on the processing

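The median change of the 76 genes differed from its reported value by less than the spread between arrays (SD 0.0847) in every comparison and every alternative run. It ran from -0.29 to -0.23 at 72 h and from -0.29 to -0.18 at 24 h. Before 8 h and between 24 and 72 h the reported medians were smaller than this spread, so a turn of sign also passes there. The ranges crossed zero at 1 h (-0.05 to 0.01), at 2 h (-0.09 to 0.06) and between 24 and 72 h (-0.08 to 0.02). With the experiment as a replicate block the test called 25 of the 76 genes at 8 h, 33 at 16 h, 39 after 24 h and 45 after 72 h. It called 5 between 24 and 72 h and 47 over the time course. Counts in this section are in either direction. Over all 14929 genes the block called 4093, 5730, 5891 and 6321 at 8, 16, 24 and 72 h. The main fit called 3443, 5026, 5250 and 5690. With the block, none of the 98 results of named genes that were recomputed lost its call. With the numbers of untreated arrays 2 and 3 exchanged in the block, an alternative chosen after seeing the data, 8 were called between 24 and 72 h. A threshold of 0.01 left 0 genes at 4 h and 9 at 8 h, 14 after 16 h, 18 after 24 h, 25 after 72 h, 14 for 24 h against 1 h, 20 for 72 h against 1 h, 1 for 72 h against 24 h and 24 over the time course. Over all genes it left 735, 2085, 3528, 3649 and 4086 at 4, 8, 16, 24 and 72 h. Against 1 h it left 3150 of all genes at 24 h and 3792 at 72 h. Fits on only the groups compared, which have fewer arrays, called 0 at 4 h and 11 at 8 h, 13 after 16 h, 19 after 24 h and 16 for 24 h against 1 h. Over all genes such fits called 784, 2233, 3682 and 3776 at 4, 8, 16 and 24 h, and 3639 for 24 h against 1 h. Centring each array on its median gave 19 at 24 h, beside 5207 of all genes. Leaving out the 3 arrays marked r, also chosen after seeing the data, gave 17 at 24 h, 11 for 24 h against 1 h and 1 for 72 h against 24 h, with 1 array left at 24 h, whose spread is taken to be that of the other groups. Without 1 array at a time the count ranged from 0 to 2 at 4 h and from 13 to 23 at 8 h, 19 to 35 after 24 h, 12 to 29 for 24 h against 1 h, 21 to 37 for 72 h against 1 h and 1 to 5 for 72 h against 24 h. Other probe set choices turned the sign of some genes. With probe sets not marked x or s preferred, 1 gene was called at 1 h, MRPL4 changed by 0.29 at 8 h and 0.58 at 16 h (adjusted p = 0.0309), 0.45 after 24 h and 0.34 after 72 h, by 0.20 from 1 to 24 h and by 0.0905 from 1 to 72 h, MRPL12 by 0.31, MRPS15 by 0.20 and MRPL43 by 0.16 at 24 h, and MRPL12 by 0.59, MRPS15 by 0.0884, MRPS14 by 0.0377 and GTPBP5 by 0.48 at 72 h. With all probe sets of a gene averaged, MRPS26 changed by 0.27, GABPB2 by 0.15 and MYC by 0.0683 at 24 h, MRPL12 by 0.00877, MRPS26 by 0.0948, MRPL38 by 0.26, RPLP2 by -0.10 and GABPB2 by 0.22 at 72 h, and MRPL38 by 0.10 from 1 to 72 h. These averages include probe sets that did not pass the filter, among them those of MRPS26 and MRPL38. The cause of these differences was not tested.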
